A study of Mus musculus with 6 samples.

Results

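The genes described here are 30 chaperones, folding enzymes, degradation factors and stress sensors of the endoplasmic reticulum (ER), chosen by name and function from the 24110 genes of the table. All 30 were found by symbol, and all 30 were among the 14113 genes abundant enough to test (on average 10 or more scaled counts per library). RNA was sequenced from hematopoietic stem cells, which renew all blood lineages, sorted from the bone marrow of C57BL/6 mice by their surface markers (Lineage-Sca-1+CD48-CD150+). The Prmt5 KO group carried the deleted form of Prmt5 (Prmt5Δ/Δ), and the Prmt5 fl/fl group carried the floxed gene in its intact form. Both groups were taken 7 days after induction, and neither the inducing agent nor the Cre driver is named in the sources used here. Each group held 3 libraries, each made from the pooled cells of 2 mice, and littermates of the same sex were set against each other. The PRMT5 enzyme methylates arginines, among them those of spliceosome proteins, and the series title places the study in splicing of these cells. The files hold totals per gene, so the splice forms of these genes, the unconventional splicing of Xbp1 included, were not analysed here.

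Proteins that enter the ER are folded by chaperones and disulfide isomerases, and those that fail to fold are passed back to the cytosol for degradation by the proteasome. When unfolded protein accumulates, IRE1 (the product of Ern1), PERK (Eif2ak3) and ATF6 signal from the ER membrane. IRE1 splices the Xbp1 message into the form that encodes an active transcription factor, ATF6 is cut to release one, and PERK slows translation through phosphorylation of eIF2 alpha. XBP1 and ATF6 raise the transcription of many of the chaperone and degradation genes described here, and hematopoietic stem cells are known to be sensitive to the balance between protein synthesis and folding.

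Prmt5 itself had 1056, 1049 and 897 scaled counts in Prmt5 KO replicates 1 to 3, against 6076, 6024 and 6010 in Prmt5 fl/fl replicates 1 to 3. The log2 fold change was -2.60, and the limma adjusted p was 6.18e-04, or 0.0618 when replicate numbers entered the fit as a block. The libraries held 37834096 to 41812565 reads in genes in Prmt5 KO and 42213314 to 44704636 in Prmt5 fl/fl, and the deposited values were scaled by the authors to a common total. All 13 markers of hematopoietic stem cells in the list used were detected, with summed scaled counts of 115612 to 134009 in Prmt5 KO and 118606 to 163447 in Prmt5 fl/fl. Granulocyte precursor markers (11 of 11 detected) summed to 77262 to 987186 in Prmt5 KO, highest in replicate 3, and to 29910 to 254239 in Prmt5 fl/fl. The 10 monocyte and macrophage markers summed to 22817 to 153021 in Prmt5 KO, again highest in replicate 3, and to 30467 to 46954 in Prmt5 fl/fl. The megakaryocyte list (9 genes) had 1 called lower, as were 0.453% of all genes. Its sums did not overlap between groups, at 30186 to 58064 in Prmt5 KO and 68833 to 84662 in Prmt5 fl/fl, nor with median-of-ratios or TMM factors. Itga2b had 7124, 6866 and 4926 in Prmt5 KO, against 22127, 30328 and 20679 in Prmt5 fl/fl. As deposited, Itga2b, Gp1ba, Gp1bb, Gp5 and Treml1 were lower in Prmt5 KO without overlap (19.9% of all genes were). Pf4, Ppbp, Gp9 and Vwf overlapped. The erythroid list of 10 summed to 54105 to 60513 in Prmt5 KO and 63627 to 97182 in Prmt5 fl/fl, with 1 called lower and Hba-a1 and Hba-a2 at 0, and its groups overlapped with either of those factors. B and plasma cell markers, relevant because plasma cells carry a large ER, summed to 2365 to 3126 in Prmt5 KO and 2796 to 3855 in Prmt5 fl/fl over the 10 of 11 listed genes in the table, with the B cell genes Pax5 and Ms4a1 between 0 and 22.4 scaled counts in each library. Of the plasma cell genes, Sdc1 had 684, 737 and 663 in Prmt5 KO, against 708, 684 and 499 in Prmt5 fl/fl, and Igj had 9.45, 48.1 and 732 in Prmt5 KO, against 1313, 189 and 24.4 in Prmt5 fl/fl, while Mzb1 and Tnfrsf17 lay between 0 and 36.6 in each library. T and NK cell markers summed to 4066 to 5065 in Prmt5 KO and 4584 to 7154 in Prmt5 fl/fl. Most of this was Nkg7, at 4969, 3944 and 4465 in Prmt5 KO and 4442, 4647 and 7020 in Prmt5 fl/fl. The T cell genes Cd3e, Cd3g, Cd3d and Cd8a had 154, 124, 123 and 87.4 in Prmt5 KO replicate 3, against 0 to 20.3 in every other library. Mast cell markers summed to 426.6 to 2536 in Prmt5 KO and 362.2 to 10656 in Prmt5 fl/fl, with Tpsb2 at 0. The part of these cell types in the results was not tested, and in bulk RNA fewer cells of a type and less RNA per cell cannot be told apart. Prmt5 fl/fl replicate 3 stands apart from the other 5 libraries by gene length, so the members whose values moved most without it are also given without it.

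ATF6 and XBP1 are known to act through short elements in the promoters of ER stress genes, and the matches in members whose levels are described most closely are shown here. The 3 motifs were searched on both strands in the window from 250 bases before to 50 bases after the RefSeq start of each gene (GRCm38.p6), which covered 25 of the 30 members and 27025 genes in all. The ER stress response element (ERSE) is CCAAT, 9 bases of any kind and CCACG. It was found in 9 members (36.0% of the 25), namely Hspa5, Hsp90b1, Dnajc3, Calr, Canx, Pdia6, Creld2, Syvn1 and Derl3, and in 37 of all genes (0.137%). ERSE-II, ATTGG, 1 base of any kind and CCACG, was found in Dnajb11 and Herpud1, and in 12 of all genes (0.0444%). The unfolded protein response element TGACGTGG, which holds CCACG on its other strand, was found in no member window and in 193 of all genes (0.714%). Capitals mark the fixed letters of the match, positions count from the start as 1 with -1 the base before it, and each sequence is written 5′ to 3′ on the strand of the gene.
Hspa5 (chr2:34772025-34772043, + strand, ERSE at -65 to -47): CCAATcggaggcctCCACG
Hsp90b1 (chr10:86705618-86705676, - strand, the first of its ERSE copies, at -212 to -194): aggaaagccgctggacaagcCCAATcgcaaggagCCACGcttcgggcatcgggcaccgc
Calr (chr8:84847055-84847113, - strand, ERSE on the other strand at -162 to -144): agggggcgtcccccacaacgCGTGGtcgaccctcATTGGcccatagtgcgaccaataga
Pdia6 (chr12:17266471-17266529, + strand, ERSE at -98 to -80): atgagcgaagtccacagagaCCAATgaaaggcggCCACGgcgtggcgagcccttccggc
Derl3 (chr10:75893222-75893280, + strand, ERSE on the other strand at -156 to -138): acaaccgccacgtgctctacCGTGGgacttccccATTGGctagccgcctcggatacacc
Herpud1 (chr8:94386357-94386407, + strand, ERSE-II at -52 to -42): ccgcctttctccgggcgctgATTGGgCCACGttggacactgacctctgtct
For Sdf2l1, the member with the smallest p, no motif matched, and its upstream window (chr16:17132384-17132633, - strand) is given whole, with its 3 copies of CCACG, all on the other strand, in capitals: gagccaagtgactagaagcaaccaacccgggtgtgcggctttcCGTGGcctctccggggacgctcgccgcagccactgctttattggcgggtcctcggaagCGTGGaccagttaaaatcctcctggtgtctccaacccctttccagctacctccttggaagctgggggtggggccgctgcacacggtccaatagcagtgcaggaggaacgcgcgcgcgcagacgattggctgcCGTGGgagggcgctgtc
A match describes these letters and does not show a site in use.

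Across the 30 genes, none passed the adjusted threshold of 0.05 in limma between Prmt5 KO and Prmt5 fl/fl, where the smallest adjusted p was 0.057 for Sdf2l1. Over all genes tested, 103 (0.73%) passed it, 39 of them higher (37.9% of the calls) and 64 lower in Prmt5 KO, a split that changed to 61.4% higher with median-of-ratios size factors, 59.4% with quantile normalization, 52.9% with TMM factors, 56.7% in edgeR and 49.6% with the gene length trend removed. EdgeR on the recovered reads also called 0 of the 30 (0.425% of all genes, of which 0.184% lower). DESeq2 called Sdf2l1 alone, as lower (6.95% of all genes were called, 2.59% higher and 4.36% lower). At an unadjusted p under 0.05, 1 member was higher and 5 were lower, against 4.58% of all genes higher and 13.6% lower. The median log2 fold change was -0.126 over the members and -0.0479 over all genes. Of the members, 20 were below 0 and 10 above, where 55.2% of all genes were below 0. This split became 15 and 15 with median-of-ratios size factors or in DESeq2, settings in which the median of all genes also rose. With median-of-ratios size factors the median was -0.0389 over the members and 0.0392 over all genes. In DESeq2 it was -0.0381 over the members and 0.0305 over all genes. The groups of libraries did not overlap for 11 members, 1 higher and 10 lower in Prmt5 KO, where 28.2% of all genes did not overlap, 8.3% higher and 19.9% lower. Counted again after the data were seen, 2 higher and 5 lower members did not overlap with median-of-ratios size factors (28.4% of all genes, 13.4% higher and 15% lower), and 2 higher and 6 lower with TMM factors (28.1% of all genes, 11.7% higher and 16.4% lower). Without Prmt5 fl/fl replicate 3, limma called 1 member, Sdf2l1 (2.67% of all genes).

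Taken as a sum, the 30 genes held 279482, 280698 and 264578 scaled counts in Prmt5 KO replicates 1 to 3, against 305366, 313245 and 281539 in Prmt5 fl/fl replicates 1 to 3. This was 0.625%, 0.628% and 0.592% of the reads in genes in Prmt5 KO, and 0.683%, 0.701% and 0.63% in Prmt5 fl/fl. As deposited, the groups of sums did not overlap, and the highest Prmt5 KO library lay just below the lowest Prmt5 fl/fl library. Other scalings made them overlap: the sums were 275078 to 284888 in Prmt5 KO and 270463 to 298880 in Prmt5 fl/fl with median-of-ratios size factors, and 275431 to 287228 in Prmt5 KO and 274816 to 305409 in Prmt5 fl/fl with TMM factors. In both, Prmt5 fl/fl replicate 3 was the lowest of the 6 libraries. Hspa5, Hsp90b1, Pdia3, P4hb, Calr and Canx together gave 61.5% of the sum on average. For 25 members the 95% interval of the log2 fold change lay between -1 and 1. The other 5 were Hyou1, Sdf2l1, Edem1, Derl3 and Ern1.

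**Figure D1:**
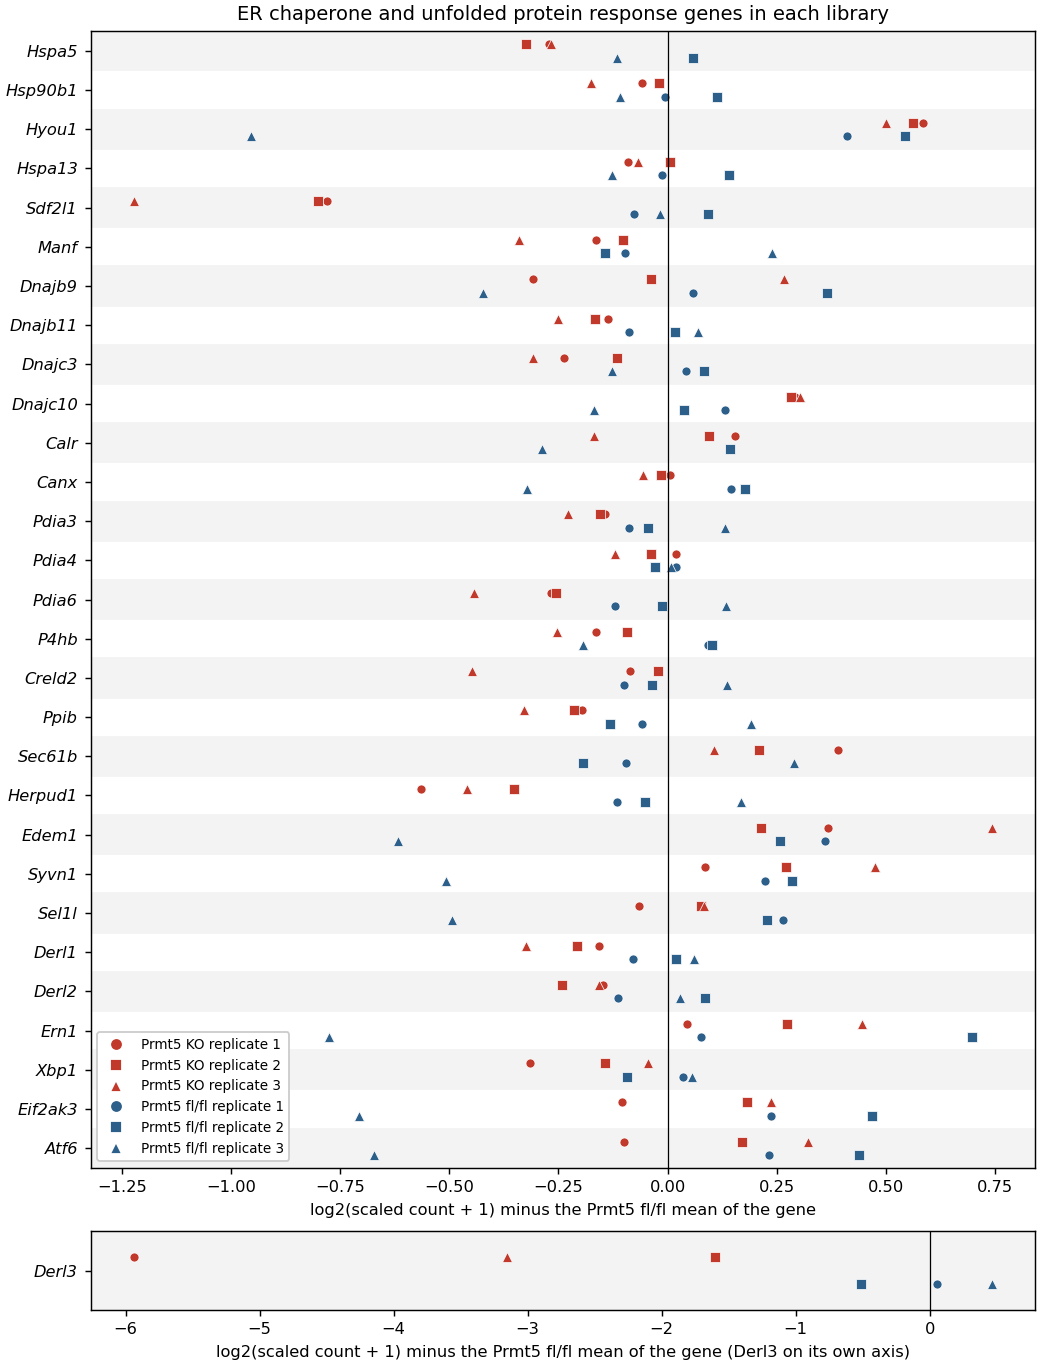
Each row is a gene and each point a library (red, Prmt5 KO; blue, Prmt5 fl/fl; the shape gives the replicate), on the log2(scaled count + 1) scale relative to the Prmt5 fl/fl mean of the gene; Derl3 has its own axis. Sdf2l1 and Derl3 lie furthest left in Prmt5 KO, Dnajc10 lies to the right in all 3 Prmt5 KO libraries, and the blue triangle (Prmt5 fl/fl replicate 3) lies far to the left for Edem1, Syvn1, Sel1l, Ern1, Eif2ak3 and Atf6; for Hyou1 it falls left of all other points.

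Among the HSP70 and HSP90 chaperones and their partners, Hspa5, Sdf2l1, Hsp90b1, Hspa13 and Manf had lower means in Prmt5 KO and Hyou1 a higher one, but Hsp90b1 and Hspa13 turned positive with median-of-ratios size factors, and Hspa13 also with TMM factors. Hspa5 (chr2:34771970-34777547), which encodes BiP, the main HSP70 of the ER and the chaperone that holds the sensors inactive, had 28068, 27056 and 28152 scaled counts in Prmt5 KO, against 35290, 35279 and 31247 in Prmt5 fl/fl. Every Prmt5 KO library lay below every Prmt5 fl/fl library. The log2 fold change was -0.29 (SE 0.104, 95% interval -0.53 to -0.05), with an unadjusted limma p of 0.0258 and an adjusted p of 0.207. With replicates 1 and 2 of both genotypes only, a setting added after the data were seen, the value was -0.36 and the adjusted p 0.0415. With the gene length trend removed, also added then, it was -0.16 (unadjusted limma p 0.167, adjusted p 0.411). In DESeq2 it was -0.20 (adjusted p 0.428). Over all alternatives the adjusted p ran from 0.0415 to 0.47.

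Sdf2l1 (chr16:17130138-17132383), an ER-resident partner of the BiP cochaperone ERdj3, had 2303, 2268 and 1692 scaled counts in Prmt5 KO, against 3751, 4219 and 3909 in Prmt5 fl/fl. The groups did not overlap, the highest Prmt5 KO library lay well below the lowest Prmt5 fl/fl library, and the lowest of all was Prmt5 KO replicate 3. The means were 2087 ± 343 in Prmt5 KO and 3960 ± 238 in Prmt5 fl/fl (SD, n = 3 each), a fold of 0.523 and a log2 fold change of -0.94 (SE 0.159, 95% interval -1.31 to -0.56). The limma p was 4.8e-04. Its adjusted value was 0.057, against 0.197 in the blocked fit, and edgeR gave an adjusted p of 0.0711. The gene passed the threshold in DESeq2 (adjusted p 1.99e-04), without Prmt5 fl/fl replicate 3 (-0.94, limma adjusted p 0.037) and with replicates 1 and 2 only (-0.80, limma adjusted p 0.0241). Its adjusted p ran from 1.99e-04 to 0.227 over 18 alternatives, and its log2 fold change from -1.01 to -0.74.

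Hyou1, the nucleotide exchange factor of BiP and the member with the largest positive difference, is named after its values were seen. It had 2459, 2421 and 2318 scaled counts in Prmt5 KO, against 2179, 2389 and 845 in Prmt5 fl/fl, so the groups overlapped and a single library was far below the other 5. The log2 fold change of 0.55 (SE 0.371, limma adjusted p 0.472) became 0.07 without Prmt5 fl/fl replicate 3, and its groups did not overlap under median-of-ratios or TMM scaling. Hsp90b1, the HSP90 of the ER (GRP94), averaged 26580 ± 1479 in Prmt5 KO and 28205 ± 2173 in Prmt5 fl/fl, with a log2 fold change of -0.08 that turned to values between 0.00 and 0.03 under median-of-ratios scaling, DESeq2 and removal of the length trend, and was -0.14 without Prmt5 fl/fl replicate 3. Other annotated genes share 15.7% of the exonic bases of Hsp90b1, and the libraries were not stranded. Hspa13, a further HSP70 family member, was at -0.05, or -0.115 without that library. Manf, a secreted and ER-resident factor that binds BiP, was at -0.20, against -0.08 without Prmt5 fl/fl replicate 3 and -0.01 with replicates 1 and 2 only, and 9.25% of its exonic bases are shared with neighbours.

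**Figure D2:**
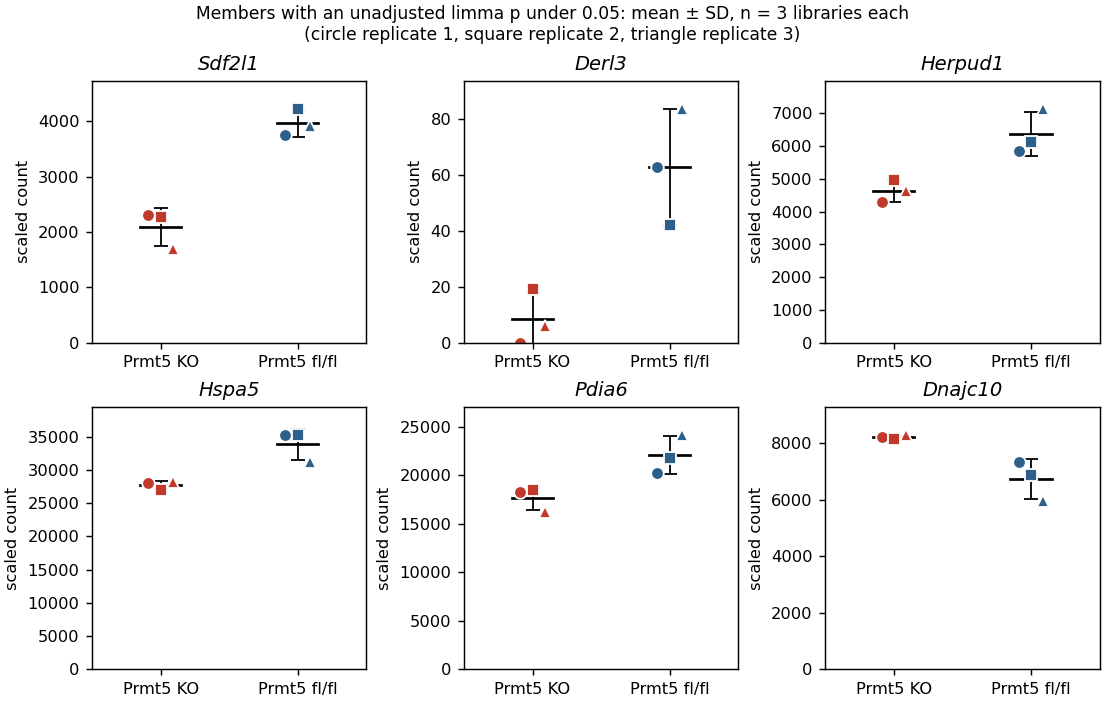
Scaled counts of the 6 members with an unadjusted limma p under 0.05, with the mean and SD of 3 libraries per group (Prmt5 KO left, Prmt5 fl/fl right; circle, square and triangle for replicates 1 to 3; axes start at 0, and the lower end of the SD bar of Derl3 in Prmt5 KO falls below 0 and is not shown). The Prmt5 KO libraries lie below the Prmt5 fl/fl libraries for Sdf2l1, Derl3, Herpud1, Hspa5 and Pdia6, and above them for Dnajc10, with adjusted p between 0.057 and 0.258.

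The J-domain cochaperones stimulate the ATPase of BiP. Dnajc10 (chr2:80315466-80354043), which encodes ERdj5, a reductase that opens disulfide bonds of proteins on their way to degradation, had 8225, 8177 and 8297 scaled counts in Prmt5 KO, against 7359, 6894 and 5976 in Prmt5 fl/fl. The Prmt5 KO libraries were close to each other and all above the Prmt5 fl/fl libraries. The log2 fold change was 0.29 (SE 0.12, 95% interval 0.01 to 0.57), with an unadjusted limma p of 0.0429 and an adjusted p of 0.258, and it ran from 0.20 to 0.38 over 18 alternatives. As deposited, it was the 1 member whose groups did not overlap with Prmt5 KO higher, a pattern that 8.3% of all genes showed. Dnajb11 (ERdj3), which binds unfolded proteins with BiP, had 5101, 5000 and 4711 scaled counts in Prmt5 KO, against 5277, 5680 and 5894 in Prmt5 fl/fl. Those groups did not overlap as deposited but did with median-of-ratios or TMM factors, at -0.19 on the log2 scale and a limma adjusted p of 0.43. Dnajc3 (p58IPK) was at -0.22 (adjusted p 0.381). Dnajb9 (ERdj4), which returns BiP to IRE1, was at -0.03 with values from 697 to 1205 in Prmt5 fl/fl alone, and its sign turned under median-of-ratios, quantile and TMM scaling; without Prmt5 fl/fl replicate 3 it was at -0.24.

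The lectin chaperones hold glycoproteins while they fold. Calr, which encodes calreticulin, had 32460, 31141 and 25955 scaled counts in Prmt5 KO, against 32191, 32211 and 23891 in Prmt5 fl/fl. Replicate 3 was the lowest library of each group, and the log2 fold change was 0.03 (95% interval -0.34 to 0.40, limma adjusted p 0.943). Canx, which encodes calnexin, averaged 29123 ± 645 in Prmt5 KO and 29921 ± 5438 in Prmt5 fl/fl (SD, n = 3 each), and the log2 fold change was -0.02, with a sign that turned under median-of-ratios and TMM scaling, and -0.18 without Prmt5 fl/fl replicate 3. For Calr the sign turned without Prmt5 KO replicate 1 or 2, without Prmt5 fl/fl replicate 3 (-0.12), and with replicates 1 and 2 only.

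All 6 disulfide and proline isomerases had negative log2 fold changes, between -0.32 and -0.05, with a median of -0.18, and none passed the adjusted threshold. Under median-of-ratios or TMM scaling 5 of the 6 stayed negative, and with the gene length trend removed 4 did. Pdia6 (chr12:17266545-17284770), a disulfide isomerase that also binds IRE1, had 18296, 18450 and 16173 scaled counts in Prmt5 KO, against 20258, 21811 and 24149 in Prmt5 fl/fl. The groups did not overlap, and replicate 3 was the lowest Prmt5 KO library and the highest Prmt5 fl/fl library. The log2 fold change was -0.32 (SE 0.118, 95% interval -0.60 to -0.05), with an unadjusted limma p of 0.0277 and an adjusted p of 0.213. It was -0.256 without Prmt5 fl/fl replicate 3 and -0.194 with replicates 1 and 2 only. With the gene length trend removed it was -0.155 (unadjusted limma p 0.236).

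Pdia3 (ERp57), the partner of calnexin and calreticulin, had 32711, 32433 and 30854 scaled counts in Prmt5 KO, against 33998, 35014 and 39615 in Prmt5 fl/fl, at a log2 fold change of -0.18, or -0.11 without Prmt5 fl/fl replicate 3, its highest library. Ppib (cyclophilin B), a proline isomerase, had 4215, 4161 and 3841 in Prmt5 KO and 4635, 4405 and 5512 in Prmt5 fl/fl, at -0.25, or -0.15 without that library, and 25% of its exonic bases are shared with Snx22 on the other strand, which an unstranded library cannot separate. Neither gene's groups overlapped as deposited, both did with median-of-ratios or TMM factors, and the limma adjusted p was 0.431 for Pdia3 and 0.372 for Ppib. P4hb (protein disulfide isomerase) was at -0.17, Pdia4 (ERp72) at -0.05 and Creld2, which acts on disulfide bonds, at -0.19, each with overlapping groups. Without Prmt5 fl/fl replicate 3, P4hb was at -0.27 and Creld2 at -0.12. Pdia4 turned positive under median-of-ratios and TMM scaling.

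Sec61b, the beta subunit of the channel through which proteins enter the ER, had 6180, 5451 and 5076 scaled counts in Prmt5 KO, against 4409, 4116 and 5762 in Prmt5 fl/fl. The groups overlapped through Prmt5 fl/fl replicate 3, which lay above 2 of the Prmt5 KO libraries. The log2 fold change was 0.24 (SE 0.163, limma adjusted p 0.48), and it was 0.38 without that library and 0.45 with replicates 1 and 2 only, where the adjusted p was 0.051. Over all alternatives the adjusted p of Sec61b ran from 0.051 to 0.762.

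Of the 7 members of ER-associated degradation, 4 were lower in Prmt5 KO with groups that did not overlap (Herpud1, Derl1, Derl2 and Derl3) and 3 had positive log2 fold changes with overlapping groups (Edem1, Syvn1 and Sel1l). Over all genes, 19.9% were lower without overlap. The groups of Derl2 overlapped with median-of-ratios or TMM factors and those of Derl1 with median-of-ratios factors. Herpud1 (chr8:94386438-94395377), a membrane protein that organizes the HRD1 ubiquitin ligase complex, had 4295, 4979 and 4619 scaled counts in Prmt5 KO, against 5862, 6125 and 7134 in Prmt5 fl/fl. All Prmt5 KO libraries lay below all Prmt5 fl/fl libraries. The means were 4631 ± 342 in Prmt5 KO and 6373 ± 671 in Prmt5 fl/fl (SD, n = 3 each), and the log2 fold change was -0.46 (SE 0.13, 95% interval -0.76 to -0.15). The unadjusted limma p was 0.00871 and the adjusted p 0.133, and the adjusted p lay between 0.0712 and 0.415 over 18 alternatives.

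The derlins form part of the channel by which proteins leave the ER for degradation. Derl3 (chr10:75893413-75895941) was the least abundant member. It had 0, 18 and 5 reads in Prmt5 KO, against 62, 42 and 79 in Prmt5 fl/fl, or 0, 19.2 and 5.91 scaled counts in Prmt5 KO and 62.8, 42.0 and 83.7 in Prmt5 fl/fl. Every Prmt5 KO library lay below every Prmt5 fl/fl library, and the SD within Prmt5 KO exceeded the mean, at 8.38 ± 9.86. The limma log2 fold change was -3.57 (SE 1.05, 95% interval -6.03 to -1.11), with an unadjusted p of 0.0106 and an adjusted p of 0.143, and edgeR on the reads gave -2.82. The size of the limma value depends on the pseudocount and on single libraries, and it lay between -4.55 and -2.38 over 17 alternatives, with the value nearest to 0 without Prmt5 KO replicate 1, the library at 0. Derl1 had 7483, 7230 and 6671 scaled counts in Prmt5 KO, against 7902, 8462 and 8701 in Prmt5 fl/fl, which is -0.23 on the log2 scale (limma adjusted p 0.329). Derl2 had 2735, 2561 and 2717 in Prmt5 KO, against 2799, 3215 and 3091 in Prmt5 fl/fl, which is -0.18 on the log2 scale (limma adjusted p 0.472).

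The remaining degradation genes were lowest of all in Prmt5 fl/fl replicate 3. Edem1, which helps mark misfolded glycoproteins for degradation, had 4014, 3608 and 5209 scaled counts in Prmt5 KO and 3997, 3718 and 2026 in Prmt5 fl/fl. Its log2 fold change was 0.44 over all libraries, 0.13 without Prmt5 fl/fl replicate 3 and -0.02 with replicates 1 and 2 only. Syvn1 (HRD1), the ubiquitin ligase of the pathway, was at 0.28, 0.02 and -0.08 in those 3 settings. Sel1l, the adaptor of HRD1, was at 0.03, -0.22 and -0.24. The limma adjusted p of these genes in those settings lay above 0.13.

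The 4 genes of the sensors and their transcription factors did not pass the threshold in any setting. Ern1 (IRE1) had 1260, 1477 and 1664 scaled counts in Prmt5 KO, against 1288, 1981 and 713 in Prmt5 fl/fl, a log2 fold change of 0.26 (95% interval -0.56 to 1.07, limma adjusted p 0.725). Eif2ak3 (PERK) had 982, 1197 and 1244 in Prmt5 KO, against 1244, 1462 and 646 in Prmt5 fl/fl, which is 0.11 on the log2 scale (adjusted p 0.879). Atf6 had 1705, 2058 and 2286 in Prmt5 KO, against 2148, 2480 and 1147 in Prmt5 fl/fl, which is 0.13 on the log2 scale (adjusted p 0.838). For each of these sensors Prmt5 fl/fl replicate 2 was the highest library and Prmt5 fl/fl replicate 3 the lowest, so the Prmt5 KO libraries fell between the extremes of the other group. Without Prmt5 fl/fl replicate 3 all of them turned negative, at -0.13 for Ern1, -0.25 for Eif2ak3 and -0.21 for Atf6, with limma adjusted p of 0.737, 0.365 and 0.437. Xbp1 had 5977, 6734 and 7218 in Prmt5 KO, against 7627, 6976 and 7740 in Prmt5 fl/fl, a log2 fold change of -0.17 (95% interval -0.45 to 0.12, limma adjusted p 0.503). Its groups overlapped, and these totals do not separate spliced from unspliced Xbp1.

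**Figure D3:**
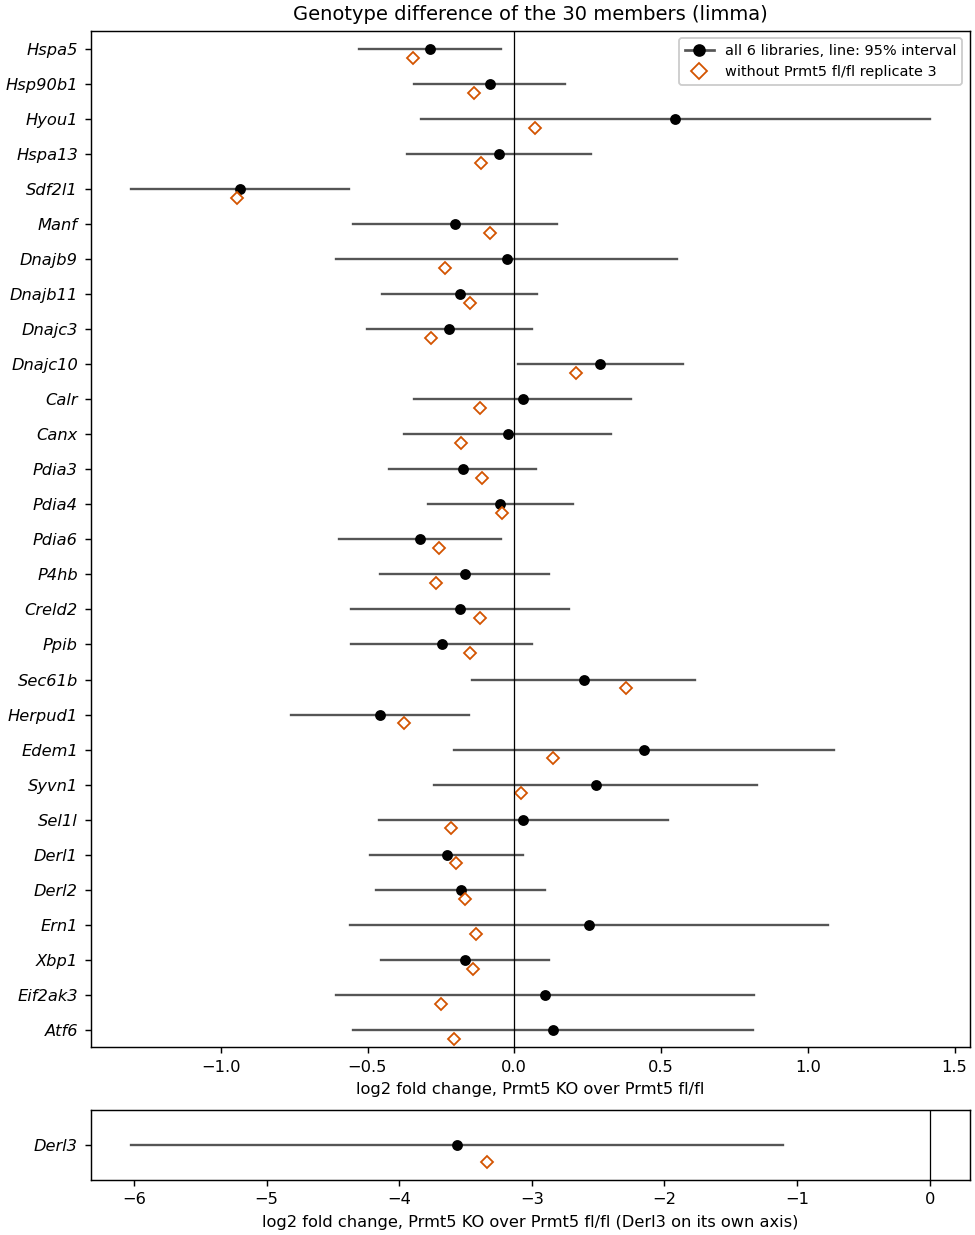
Log2 fold change of each member, Prmt5 KO over Prmt5 fl/fl, from limma on log2(scaled count + 1): black points with lines for the value and 95% interval over all 6 libraries, open diamonds for the value without Prmt5 fl/fl replicate 3, and Derl3 on its own axis. The interval of Sdf2l1 lies furthest from 0 in the main panel (-1.31 to -0.56), and the diamonds of Calr, Sel1l, Ern1, Eif2ak3 and Atf6 lie on the other side of 0 from their points.

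Prmt5 fl/fl replicate 3 differed from the other libraries in a way that followed gene length. In that library, the deviation of each gene from its mean in the other 5 libraries correlated with gene length at a Spearman rho of -0.518 over the 14113 genes tested and -0.728 over the 30 members, against 0.596 over the members in Prmt5 KO replicate 3 and 0.166 to 0.295 in the other 4 libraries. These correlations run over genes, which share libraries and are not independent replicates, and are given as a description. Members under 1500 bases had a median log2 deviation of 0.377 in Prmt5 fl/fl replicate 3 (5 genes; all genes of that length 0.442), and members over 4000 bases one of -0.495 (10 genes; all genes -0.545). It was the lowest library for 12 members, whose median length was 4225 bases, and the highest for 10, whose median length was 2165 bases. Prmt5 KO replicate 3 was also the lowest library for 12 members, and Prmt5 fl/fl replicate 2 the highest for 11. The cause of this length pattern was not tested.

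**Figure D4:**
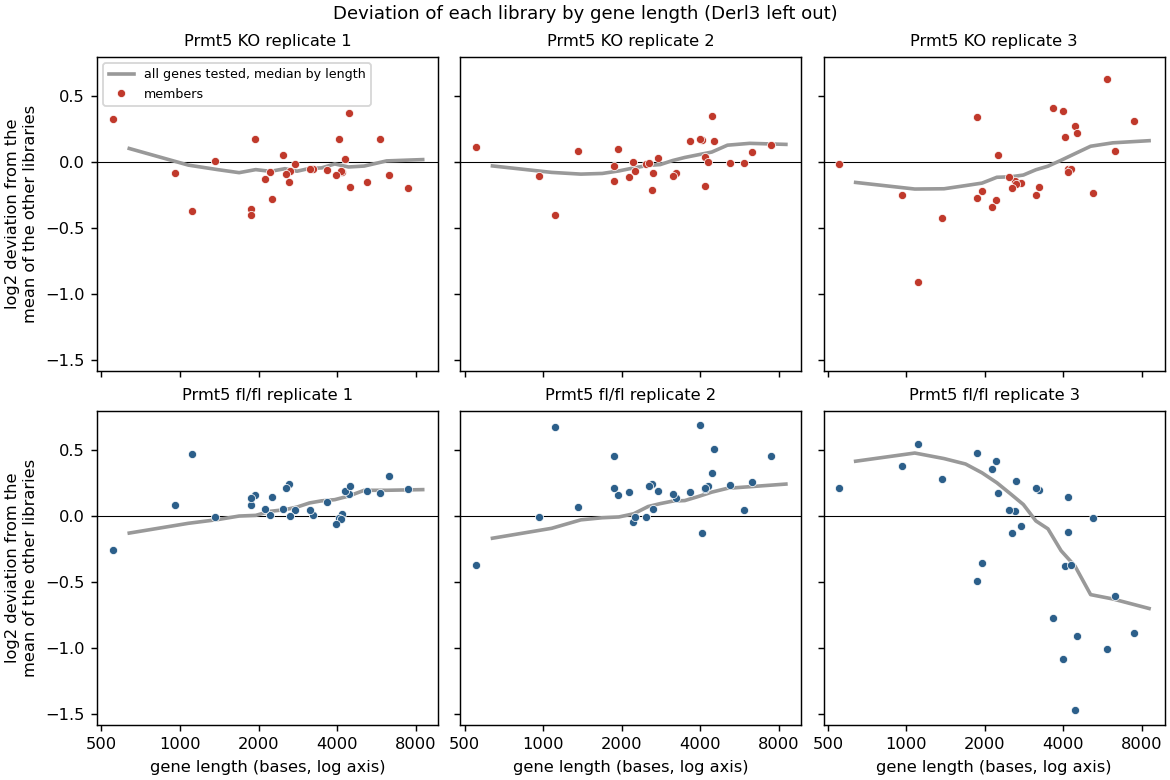
Log2 deviation of each library from the mean of the other libraries (y axis) against gene length in bases (x axis, log scale), for 29 members (points, Derl3 left out) and as the median of all genes tested in bins of length (grey line), with the Prmt5 KO libraries above and the Prmt5 fl/fl libraries below. In Prmt5 fl/fl replicate 3 the grey line falls to -0.703 for the longest genes, and the members follow it downward.

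Without that library the median log2 fold change of the members was -0.15, with 25 below 0 (all genes -0.0752), and with replicates 1 and 2 only it was -0.159, with 26 below 0 (all genes -0.0817). Leaving it out turned the sign of 5 members (Calr, Sel1l, Ern1, Eif2ak3 and Atf6), moved 13 by more than 1.5 times with the same sign, and moved the other 12 by less. With the length trend removed from every library by a loess fit, a setting added after the data were seen, the median was -0.0374, with 18 below 0 (all genes 0.0158). By pairs of replicates, the median of KO minus fl/fl on the log2 scale was -0.108, -0.168 and -0.116 over the 30 members for replicates 1, 2 and 3, and -0.0949, -0.0551 and -0.101 over all genes tested. The sensors and Xbp1 together had pair medians of -0.337, -0.278 and 0.969. The sensors turned sign in the replicate 3 pair, at 1.22 for Ern1, 0.94 for Eif2ak3 and 0.99 for Atf6. Members outside this group turned there too. Hspa13, Dnajb9, Canx, Syvn1 and Sel1l went from negative to positive, and Creld2 and Sec61b from positive to negative. Xbp1 was negative in every pair, at -0.35, -0.05 and -0.10. For Sdf2l1 every pair was negative, at -0.70, -0.90 and -1.21. Herpud1 was also negative in each, at -0.45, -0.30 and -0.63, and so was Hspa5, at -0.33, -0.38 and -0.15. Within groups, the coefficient of variation of scaled counts had a median of 7.04% over the members in Prmt5 KO and 10.9% in Prmt5 fl/fl, and it was larger in Prmt5 fl/fl for 24 of the 30.

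Per kilobase of gene length, the level of the members spanned from abundant folding factors down to sensors somewhat below the middle of the genes tested, with Derl3 lower still. Levels are given as the mean of scaled counts per kilobase with its SD over 3 libraries. Calr stood highest, at 15364 ± 1770 in Prmt5 KO and 15147 ± 2469 in Prmt5 fl/fl, above 98.7% of the genes tested in Prmt5 fl/fl. Pdia3 followed at 12112 ± 379 in Prmt5 KO and 13705 ± 1133 in Prmt5 fl/fl, and Hspa5 at 10611 ± 233 in Prmt5 KO and 12974 ± 891 in Prmt5 fl/fl. The next 3 in Prmt5 fl/fl, P4hb, Pdia6 and Hsp90b1, differed from each other by less than 1 SD. The sensors were far lower: Ern1 had 369 ± 51.0 in Prmt5 KO and 334 ± 160 in Prmt5 fl/fl, Atf6 had 270 ± 39.2 in Prmt5 KO and 258 ± 93.0 in Prmt5 fl/fl, and Eif2ak3 had 254 ± 31.1 in Prmt5 KO and 248 ± 94.0 in Prmt5 fl/fl. In Prmt5 fl/fl, Ern1 stood above 43.9% of the genes tested, Atf6 above 39.3% and Eif2ak3 above 38.6%. Xbp1, by contrast, stood above 90.1% of genes. Derl3 was last, at 6.28 ± 7.38 in Prmt5 KO and 47.0 ± 15.6 in Prmt5 fl/fl.

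**Figure D5:**
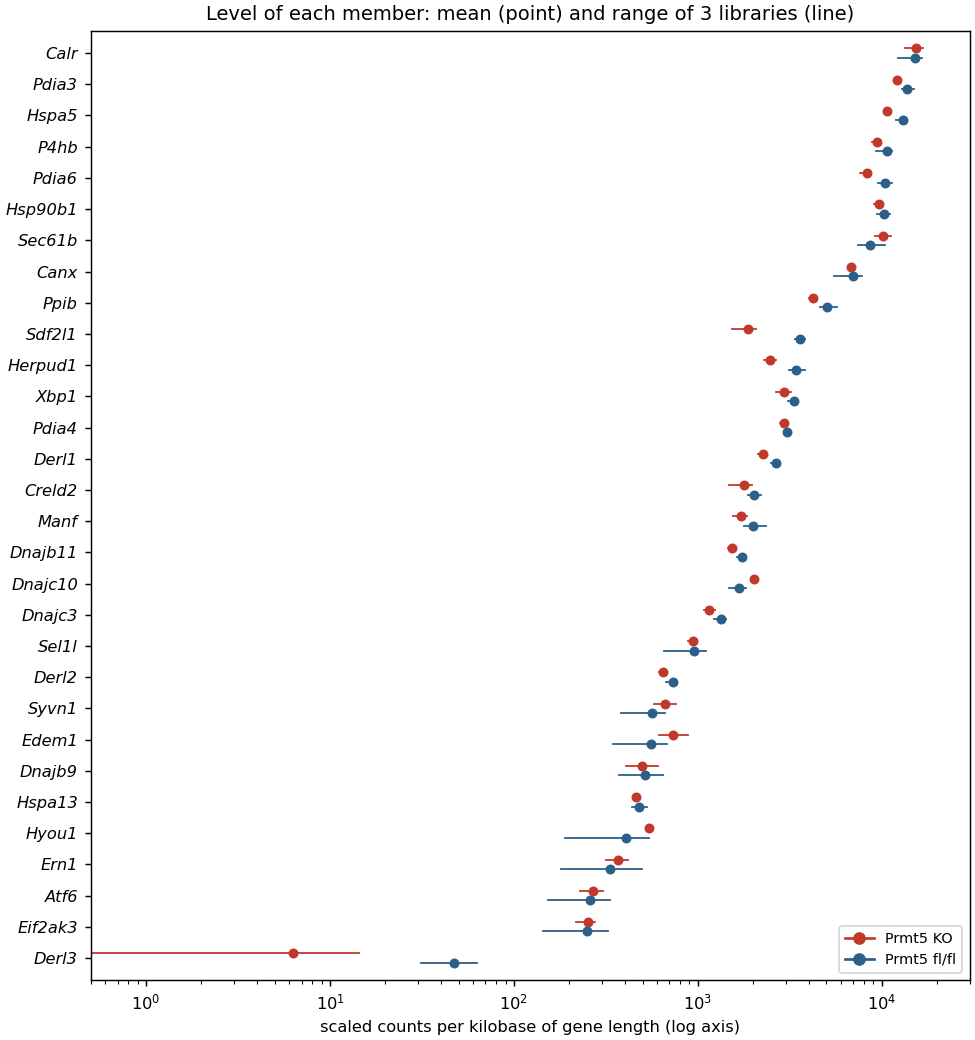
Scaled counts per kilobase of gene length (log axis) for the 30 members in the order of their Prmt5 fl/fl mean, with points for the mean and lines for the range of 3 libraries in Prmt5 KO (red, upper) and Prmt5 fl/fl (blue, lower). Calr is at the top and Derl3 at the bottom, where the Prmt5 KO line runs off the left edge because 1 library was at 0.

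Other genes of the same pathways were counted from 5 lists of 117 genes, 116 of which were in the table and tested. None passed the adjusted threshold in limma (0.73% of all genes did) or in edgeR, and DESeq2 called 1 higher and 5 lower, where it called 2.59% of all genes higher and 4.36% lower. At an unadjusted limma p under 0.05, 1 was higher and 16 were lower in Prmt5 KO, where the shares over all genes were 4.58% and 13.6%. Their median log2 fold change was -0.0639, near the -0.0479 of all genes, and it became 0.0225 with median-of-ratios size factors (all genes 0.0392). The folding and disulfide list (26 genes, 21 below 0) had a median of -0.20, which was -0.113 under median-of-ratios scaling. The translocon and N-glycosylation list (31 genes) had -0.0332, the other degradation genes (29) -0.0254, the regulators of the response (14) -0.0578, and the PERK and ATF4 arm (16) 0.0546. The medians of the translocon, degradation and regulator lists turned positive under median-of-ratios and TMM scaling, as did the median of all genes (0.0392 and 0.016).

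The gene with the smallest p in each list was as follows. Ero1lb, an oxidase that feeds disulfide bonds to the isomerases, had 344, 461 and 456 scaled counts in Prmt5 KO, against 771, 849 and 825 in Prmt5 fl/fl, which is -0.97 on the log2 scale (limma adjusted p 0.0676). Os9, a lectin that delivers glycoproteins to the HRD1 complex, had 4946, 5618 and 5964 in Prmt5 KO, against 8587, 9044 and 11681 in Prmt5 fl/fl, which is -0.82 on the log2 scale (adjusted p 0.0676). Both genes had groups that lay far apart, and each passed the threshold in 3 of 18 alternatives, over which the adjusted p ran from 0.00144 to 0.271 for Ero1lb and from 0.00372 to 0.271 for Os9.

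Ssr4, a subunit of the translocon-associated complex, was at -0.52 (limma adjusted p 0.178). Wfs1, a membrane protein of the ER that restrains ATF6, had 39.0, 102 and 94.5 scaled counts in Prmt5 KO, against 220, 142 and 246 in Prmt5 fl/fl, which is -1.44 on the log2 scale (adjusted p 0.151). Sesn2, a stress-induced sestrin that is also a target of p53, had 4099, 2495 and 3767 in Prmt5 KO, against 1328, 1486 and 907 in Prmt5 fl/fl, a log2 fold change of 1.48 (SE 0.255, adjusted p 0.0587), and passed the threshold in 5 of 18 alternatives, with an adjusted p from 2.09e-06 to 0.262. In the same list Atf4, the transcription factor downstream of PERK, was at 0.07, and Ddit3, which encodes CHOP and is named after its values were seen, had 688, 595 and 737 in Prmt5 KO, against 1013, 1069 and 1702 in Prmt5 fl/fl, which is -0.87 on the log2 scale (adjusted p 0.117).

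The members with an ERSE or ERSE-II in their promoter window and those without covered overlapping ranges of difference. The 11 with a motif had a median log2 fold change of -0.185, between -3.57 for Derl3 and 0.278 for Syvn1, with 9 below 0. The 14 whose windows held neither had a median of -0.0365, between -0.936 for Sdf2l1 and 0.442 for Edem1, with 8 below 0. The 5 members with no window in the table (Hyou1, Hspa13, Manf, Derl1 and Atf6) had a median of -0.051. Of the 6 members at an unadjusted p under 0.05, Hspa5, Pdia6, Derl3 and Herpud1 held a motif and Sdf2l1 and Dnajc10 did not.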

How the data were processed

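Stem cell RNA was amplified as cDNA (SMART-Seq v4) before library preparation with Nextera XT, per the labels' protocols, and strand is not marked by these kits. The submitters' processing notes name STAR, featureCounts and mm10, with no version and no gene annotation. The deposited table holds whole read counts for Prmt5 fl/fl replicate 2 and, for the other 5 libraries, a scaled signal in which the authors multiplied counts by the ratio of that library's total (44704636) to the library's own; dividing this out gave whole reads for 100% of values within 1e-06. The deposited gene length is another column and was used for levels per kilobase and length trends.

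Genotype groups came from the labels. The 14113 genes averaging 10 or more scaled counts were tested on log2(value + 1) with limma's moderated two-sided test with a mean-variance trend (4 residual degrees of freedom), with Benjamini-Hochberg adjustment across these genes and a threshold of 0.05. Fold changes of low genes on this scale depend on the pseudocount. EdgeR's quasi-likelihood test and DESeq2 ran on the recovered counts. R 4.3.3, limma 3.58.1, edgeR 4.0.16, DESeq2 1.42.0, Python 3.11.15 and matplotlib 3.10.9 were used, and the fits were tested on simulated data. At 37834096 to 44704636 reads in genes per library, counting adds to the spread between libraries, most of all for Derl3 among the members. Of the further ER genes named, Wfs1 was also low, at 33 to 232 reads per library. Each library pools mice, and p-values measure the variation from pool to pool.

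Libraries with the same replicate number were treated as pairs only in the fit with the replicate block and in the differences by pair. The reason was that their titles share a prefix and the mice were litter-matched, though the meaning of the prefix is not stated. The main limma fit, edgeR and DESeq2 compared the groups without pairing. The deviations from the group means correlated at -0.14, 0.0675 and -0.256 within the 3 pairs, and the fit with the replicate block has 2 residual degrees of freedom.

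The members, the lists and the rule for named genes were chosen with earlier results of these data known. Values in every library are given for Hspa5, the sensors and Xbp1, each member with an unadjusted p under 0.05, the member furthest from 0 in each role group and, for each further list, its gene of smallest p; values for further genes were added after they were seen. Gene coordinates are from GENCODE M21 (mm10). Promoter windows are RefSeq's for GRCm38.p6, and of Hspa5 only the motif is shown because GENCODE has a transcript that starts upstream of it. The 1 listed gene not matched was Fam8a1, and Ighm of the B cell markers was not in the table.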

Additional observations from a re-analysis of the deposited data

How the results depend on the processing

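No member was called in limma over all 6 libraries, and the count of members called stayed at 0 in both directions under the pseudocounts of 0.5 and 5, the filter settings, the 3 other scalings, edgeR, the replicate block and the removal of the gene length trend. The exceptions were lower calls: 1 in DESeq2, 0 to 1 when each library was left out in turn, and 2 with replicates 1 and 2 of both genotypes. The added settings, chosen after seeing the data, were those replicates and the length trend. Over all genes, the 39 higher and 64 lower calls became 1 and 0 with the replicate block, and the block changed no other count of calls; in this fit Prmt5 had an adjusted p of 0.0618 and an unchanged log2 fold change of -2.60. The counts of higher and lower calls were 365 and 616 in DESeq2, 194 and 343 with replicates 1 and 2 only, 127 and 129 with the length trend removed, and 1 to 120 and 2 to 257 when each library was left out, the most of them without Prmt5 fl/fl replicate 3 and fewer than over all 6 without any of the other 5. Lower calls also moved to 38 without a filter, 22 with median-of-ratios size factors, 26 with quantile normalization, 32 with TMM factors and 26 in edgeR. Among the other 116 ER genes, the higher count of 0 became 1 under quantile normalization, in DESeq2, with replicates 1 and 2 only and with the length trend removed, and 0 to 1 when each library was left out. Their lower count of 0 became 5 in DESeq2, 3 with replicates 1 and 2 only, 1 with the length trend removed, and 0 to 1 when each library was left out.

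The members whose groups did not overlap, 1 higher and 10 lower as deposited, were 2 higher and 5 lower with median-of-ratios size factors and 2 higher and 6 lower with TMM factors, a count added after seeing the data. Signs turned in at least 1 setting for 13 members, whose log2 fold changes over all 6 libraries were between 0.022 and 0.442 in size, and the cause was not tested. Under median-of-ratios scaling the log2 fold change was 0.003 for Hsp90b1, 0.036 for Hspa13, 0.061 for Dnajb9, 0.065 for Canx and 0.04 for Pdia4. With TMM factors it was 0.013 for Hspa13, 0.038 for Dnajb9, 0.041 for Canx and 0.017 for Pdia4, and quantile normalization gave 0.052 for Dnajb9. EdgeR gave 0.008 for Hspa13, 0.023 for Dnajb9, 0.024 for Canx and 0.017 for Pdia4. DESeq2 gave 0.001 for Hsp90b1, 0.033 for Hspa13, 0.048 for Dnajb9, 0.048 for Canx and 0.041 for Pdia4. With the length trend removed the values were 0.028 for Hsp90b1, 0.153 for Dnajb9, 0.093 for Pdia4, 0.01 for Creld2, -0.106 for Sel1l and -0.026 for Atf6. With replicates 1 and 2 only they were -0.018 for Calr, 0.014 for Creld2, -0.019 for Edem1, -0.076 for Syvn1, -0.241 for Sel1l, -0.228 for Ern1, -0.314 for Eif2ak3 and -0.301 for Atf6. Leaving out each library in turn gave -0.115 to 0.02 for Hspa13, -0.237 to 0.157 for Dnajb9, -0.116 to 0.125 for Calr, -0.183 to 0.067 for Canx, -0.215 to 0.164 for Sel1l, -0.132 to 0.605 for Ern1, -0.248 to 0.34 for Eif2ak3 and -0.205 to 0.351 for Atf6. Of the values of single genes under the alternatives, 585 kept their sign and their side of the threshold, 46 turned sign, 15 passed the threshold and 1 (Prmt5 under the replicate block) no longer did. Among the members, depth limits Derl3 most, at 0 to 79 reads per library.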
